A study of Mus musculus with 6 samples.

Results

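Blood vessels of the quadriceps femoris, a thigh muscle of mostly fast fibres, were followed here through 32 genes used as markers of endothelial cells (20 genes) and of the mural cells around them (12 genes: 5 of smooth muscle and 7 of pericytes). The members were found by gene symbol among the 22036 genes of the deposited table, and every one of the 32 was in the table with at least 1 read. The samples were 3 muscles labelled Prr14-WT (wild type, WT) and 3 labelled Prr14-KO (knockout, KO), each read as 1 nanopore cDNA library from total RNA. The sources used here give no age, sex or strain and do not say which part of Prr14 was deleted, and nothing says that the libraries of a genotype came from separate animals, so p-values measure the spread between libraries. PRR14 links heterochromatin to the nuclear lamina, and the series title concerns mechanotransduction and fibre identity in muscle. No label names vessels, so the comparison below asks only whether the RNA of vascular cells differed in level between the genotypes.

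Skeletal muscle is among the most capillary-rich tissues, with capillaries running along each fibre. Their endothelial cells sense VEGF and angiopoietins through receptor tyrosine kinases, seal their contacts with cadherin and claudin, and hand fatty acids from the blood to the fibre. Pericytes sit on the capillary wall and are recruited by PDGF, and smooth muscle cells wrap arterioles and set blood flow by contraction. Genes of contraction in smooth muscle are driven by serum response factor, which binds the CArG box, a short AT-rich DNA element.

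The libraries held 1436099 to 1712975 reads in listed genes. Levels are CPM, read counts relative to the total of the library after TMM scaling. Errors are the SD (n = 3 libraries), and runs of 3 values give replicates 1, 2 and 3 in that order. The targeted gene Prr14 had 9, 11 and 12 reads across WT and 4, 10 and 3 reads across KO (edgeR adjusted p = 0.196), so it did not check the labels at this depth, and reads outside the deleted part would check nothing. Skeletal muscle was checked by its fast-fibre genes: Myh4, the fast myosin heavy chain, was at 7421 CPM or more in each library, though it fell in KO (edgeR adjusted p = 6.73e-06). Libraries also differed within a genotype: WT replicate 3 had the lowest summed adipocyte and slow-fibre markers, and KO replicate 2 had by far the highest slow-fibre sum.

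None of the vascular genes passed the main test. Of the 32 genes 26 had enough reads to be tested, 17 endothelial and 9 mural, and 0 of the 26 were called higher and 0 lower in KO by edgeR's quasi-likelihood test (adjusted p under 0.05, Benjamini-Hochberg, over 6680 genes). Of all genes tested 2.98% were called higher and 3.28% lower, 6.26% together (199 and 219 genes; with library totals as the scale 653 and 148). DESeq2 and limma-voom also called 0 of the 26, and the other 6 genes (Vwf, Sox17, Sox18, Cnn1, Cspg4 and Mcam) had too few reads for this test. At an unadjusted p under 0.05 the edgeR count was 3: Cldn5 and Acta2 toward higher levels and Pdgfrb toward lower levels, where all genes gave 10.7% higher and 9.28% lower. The median log2 fold change was -0.02 for the 17 endothelial genes, 0.25 for 4 smooth muscle genes and -0.38 for 5 pericyte genes, beside 0.017 for all genes tested. On the scale of library totals the median of all genes moved to 0.251, and the medians of the groups to 0.217, 0.485 and -0.146, so each moved by about as much as the median of all genes, and the endothelial one changed sign. In bulk tissue, fewer cells of a type and less RNA per cell cannot be told apart.

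**Figure D1:**
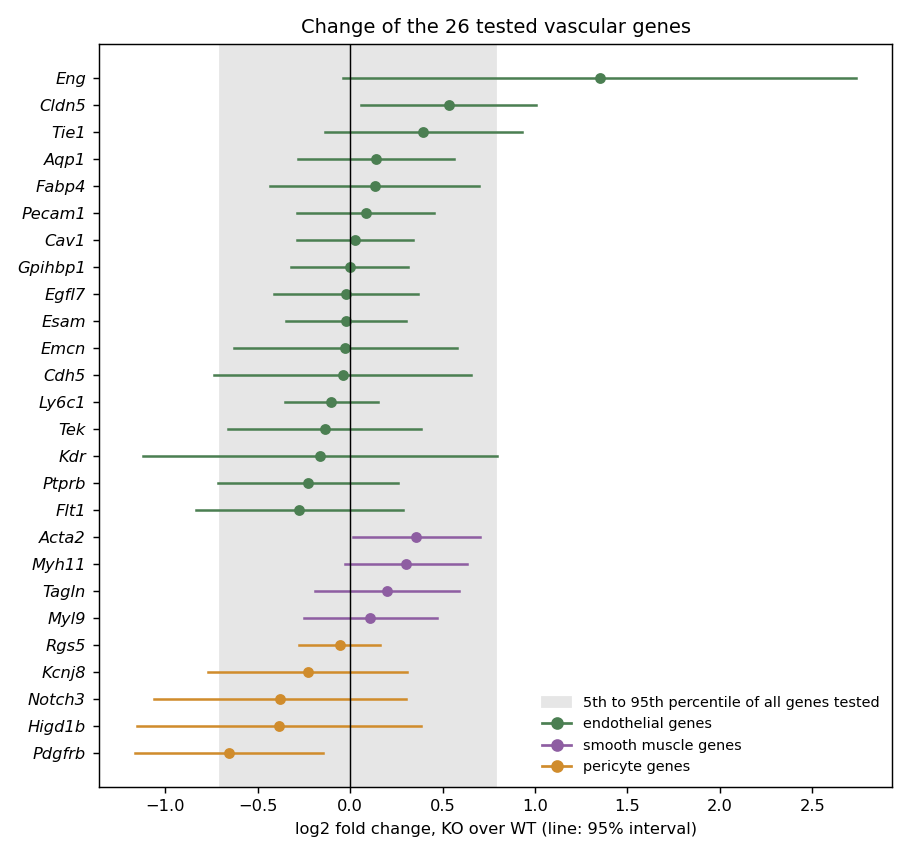
Log2 fold change of KO over WT (x axis) for each of the 26 tested vascular genes (y axis), with the edgeR estimate as a point, its 95% interval as a line and colour for the cell type. The grey band runs from the 5th to the 95th percentile of all genes tested (-0.705 to 0.789); every estimate but that of Eng lies inside it.

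The precision behind these 0 calls differed between genes. For 20 of the 26 the 95% interval of the fold change stayed within a factor of 2 of no change in either direction, as it did for 67.1% of all genes tested, and for 9 within a factor of 1.5 (23.8% of all genes). Of the 17 endothelial genes the narrower limit held for 7, and of the 9 mural genes for 2. For counts simulated with known changes at this depth, 10% of genes changed by a factor of 1.5 were called, 49% of those changed by 2 and 97.9% of those changed by 4. The simulation changed 200 genes and gave 134 calls, against 418 in the data. A call there needed a smaller unadjusted p, so these shares may be too low for the data.

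Adhesion genes found across endothelium overlapped between the genotypes. Pecam1 (CD31), an adhesion molecule of endothelial contacts, had 78.8, 74.3 and 63.7 CPM across WT and 59.96, 83.1 and 86.5 CPM across KO. The KO libraries spanned the whole WT range, with KO replicate 1 lowest and KO replicate 3 highest of all 6. The fold change of Pecam1 was 1.06, with a 95% interval of 0.819 to 1.37 (edgeR adjusted p = 0.848). Cdh5 (VE-cadherin), which holds endothelial cells together, had 18.6 ± 7.29 CPM across WT and 18.1 ± 6.37 CPM across KO, with a wider interval of 0.601 to 1.58. Esam, an adhesion molecule of tight contacts, had 88.6 ± 11.8 and 87.3 ± 5.22 CPM (interval 0.785 to 1.23). Emcn (endomucin), a sialomucin of capillaries and veins, had 13.7 ± 2.02 and 13.5 ± 2.79 CPM.

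Cldn5, the main claudin of endothelial tight junctions, was the most uniform of these in WT. Its level was 17.5, 17.7 and 18.5 CPM across WT and 24.5, 30.6 and 22.9 CPM across KO. Every KO library lay above every WT library, as for 13.5% of all genes tested. Its log2 fold change of 0.53 (SE 0.22) had an edgeR adjusted p of 0.192 and a fold interval of 1.04 to 2.01, and among the alternatives it passed only with library totals (edgeR adjusted p = 0.0424), the scale on which the median of all genes was itself raised. Of the 17 endothelial genes Eng was the only other whose genotypes did not overlap.

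Receptors of the growth factor pathways did not pass either. Kdr and Flt1, the VEGF receptors VEGFR2 and VEGFR1, had 7.27 ± 3.49 and 25.2 ± 8.38 CPM across WT and 6.49 ± 3.04 and 20.9 ± 3.39 CPM across KO. WT replicate 3 held both the lowest Kdr level, at 3.42 CPM, and the highest Flt1 level, at 33.5 CPM. Tek (TIE2), the angiopoietin receptor, had 17.9 ± 2.71 and 16.3 ± 2.34 CPM (fold interval 0.632 to 1.31). Tie1, its partner receptor, had 16.1, 14.3 and 13.7 CPM across WT and 18.4, 23.7 and 16.0 CPM across KO, with KO replicate 3 just under WT replicate 1. The log2 fold change of Tie1 was 0.40 (SE 0.25, edgeR adjusted p = 0.425). Ptprb (VE-PTP), the phosphatase that restrains TIE2, had 27.2 ± 0.854 CPM across WT and 23.1 ± 5.83 CPM across KO, where replicates 1 and 2 lay below the WT range and replicate 3 above it.

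Eng (endoglin), a co-receptor for BMP9 and TGF-beta on endothelium, had the largest SE of the 26 tested genes. Its read counts were 11, 13 and 2 across WT and 16, 44 and 17 across KO, or 8.03, 8.86 and 1.37 CPM against 9.79, 27.5 and 9.74 CPM. The genotypes did not overlap, with KO higher, as for 13.5% of all genes tested. A single library in each genotype stood apart, WT replicate 3 low and KO replicate 2 high. Its log2 fold change came to 1.35 (SE 0.61, edgeR adjusted p = 0.266), and the fold interval ran from 0.972 to 6.68. Omitting KO replicate 2 gave a log2 fold change of 0.682 (edgeR adjusted p = 0.537), and omitting WT replicate 3 gave 0.868 (edgeR adjusted p = 0.44). Those libraries also had the highest and the lowest slow-fibre score, a mean log2 CPM of slow-fibre genes, of 6.59 and 2.43. When that score was a covariate, the log2 fold change of Eng was 1.13 (edgeR adjusted p = 0.094). The annotation places 61 exon bases of Eng over Fpgs on the other strand, and no source used here says whether counting used strand.

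Capillary genes of lipid and water transport were well covered and overlapped between genotypes. Gpihbp1, which carries lipoprotein lipase to the capillary lumen, had 117, 133 and 129 CPM across WT and 133, 105 and 140 CPM across KO. The fold interval for Gpihbp1 was 0.802 to 1.24, centred on 0.998. Fabp4, a fatty acid binding protein of capillary endothelium and of adipocytes, had 247, 215 and 114 CPM across WT and 213, 218 and 199.9 CPM across KO. WT replicate 3 alone was low, and that library also had the lowest summed level of the 7 adipocyte markers, 130.1 CPM against 377.5 to 795.3 CPM in the other libraries; their part in the level of Fabp4 was not tested. Aqp1, a water channel of endothelium and red cells, had 38.8 ± 7.96 and 42.7 ± 4.75 CPM, while the summed red blood cell markers were 1624 to 4003 CPM across WT and 1401 to 2016 CPM across KO. The library with the lowest red cell sum in WT, replicate 3, held the highest Aqp1 level of all 6, at 47.9 CPM. The part of red cells in the level of Aqp1 was not tested.

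Other genes of the capillary wall overlapped as well. Ly6c1, a surface protein of capillary endothelium, had 257 ± 19.3 CPM across WT and 239.6 ± 17.2 CPM across KO (fold interval 0.782 to 1.11). Its near-identical neighbour Ly6c2, a monocyte gene, had 4 reads in WT replicate 1 and 0 in the other libraries. Cav1 (caveolin 1), the coat protein of caveolae, had 109 ± 8.88 and 111 ± 12.6 CPM (fold interval 0.819 to 1.26), and Cav1 is also made by adipocytes and smooth muscle. Egfl7, an endothelial matrix protein whose gene hosts the microRNA miR-126, had 62.9 ± 7.11 and 62.0 ± 12.6 CPM. Across the 20 endothelial genes together the summed level was 1157, 1139 and 999.5 CPM across WT and 1120, 1167 and 1084 CPM across KO. The sums overlapped and differed by less than the spread between WT libraries. Fabp4 was a large part of that WT spread, at 247, 215 and 114 CPM.

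**Figure D2:**
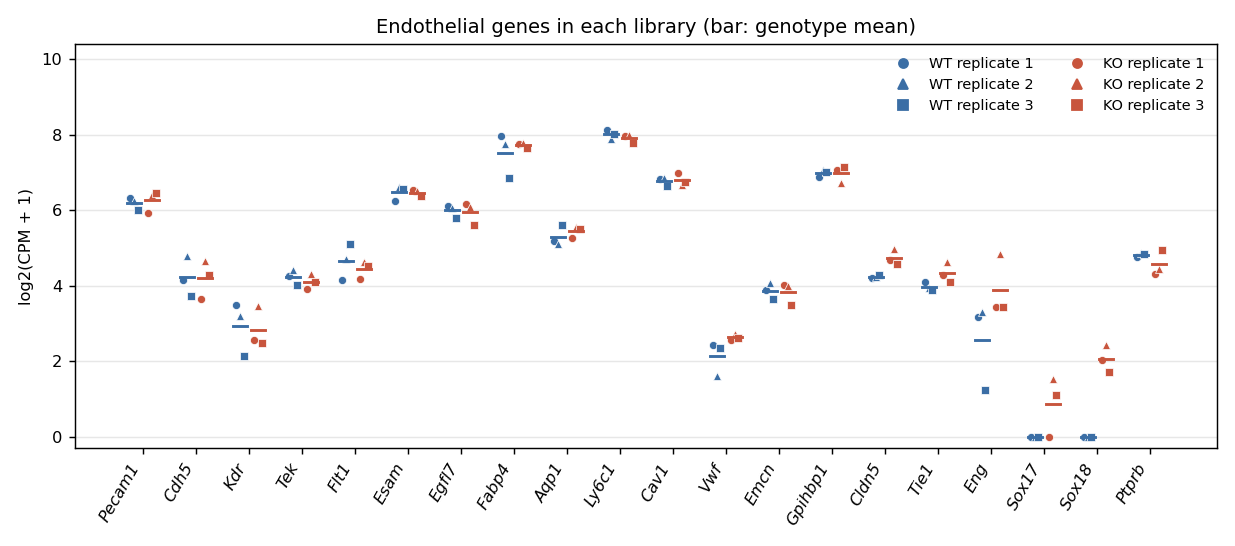
Level of each of the 20 endothelial genes (x axis) as log2(CPM + 1) (y axis) in the 6 libraries, with WT in blue, KO in red, a symbol for each replicate and a bar for the mean of the plotted values of a genotype. WT and KO overlap for most genes; Sox18 is at 0 in all WT libraries and Eng is spread in both genotypes.

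The endothelial transcription factors SOX17 and SOX18 were read near the detection limit, Sox18 in KO libraries alone. Sox18, a SOX F factor of blood and lymphatic endothelium (ENSMUSG00000046470, GRCm38 chromosome 2, 181669836 to 181671640, minus strand), had 0 reads in each WT library and 5, 7 and 4 reads across KO. The KO levels were 3.06, 4.37 and 2.29 CPM, while a count of 0 allows up to 2.19, 2.04 and 2.05 CPM in WT replicates 1 to 3, which covers counting error only. Against a floor of 3 reads over the WT group the 16 KO reads gave a ratio of 4.6. That ratio takes the KO count as exact, so it is not a lower limit of the change. Sox18 was too low for the filter of the main test, and its exact two-sided permutation p over libraries was 0.1, the lowest value possible for groups of this size. With no filter on low counts, fits across 14292 genes called Sox18 higher in KO with edgeR (adjusted p = 0.00434, or 0.0114 with robust=FALSE and 0.00154 with library totals) and limma-voom (0.00298). The edgeR call also held with each library left out in turn (adjusted p 0.00625 to 0.0369). Sox18 entered all fits without a filter through its KO reads alone, and leaving out a WT library left WT at 0. Those fits are therefore no independent support. DESeq2 gave a p of 0.00338 and no adjusted value. These fits without a filter other than the first were chosen after seeing the data. Of the 14292 genes with any read, 55 (0.385%) had 0 reads in all WT and at least 1 in all KO libraries, and 31 (0.217%) had the reverse. Sox18 alone (0.007%) had 0 in WT and at least 4 in each KO library. The cutoff of 4 was chosen after the values of Sox18 were seen and is its own lowest KO count. The share of 0.007% therefore follows from that choice and does not measure how unusual Sox18 was.

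Related factors were at a similar depth. Sox17, a SOX F factor of arterial endothelium, had 0 reads in all WT libraries and 0, 3 and 2 across KO, so the genotypes overlapped at 0 (exact two-sided permutation p = 0.4). Sox7, the third member of the family, had 7, 5 and 6 reads in WT and 4, 8 and 7 reads in KO. Vwf (von Willebrand factor), which marks larger vessels, had 6, 3 and 6 reads in WT and 8, 9 and 9 in KO, or 3.51 ± 1.28 against 5.22 ± 0.368 CPM (exact two-sided permutation p = 0.1). Its libraries did not overlap, with KO higher, as for 4.58% of all genes with a read under the filter. With no filter Vwf did not pass (edgeR adjusted p = 0.73). Sox18 and Eng were the endothelial genes called when the filter was removed, that is 2 of 20 beside 4.94% of all genes in that fit. The call for Eng (edgeR adjusted p = 0.00799) was lost there without WT replicate 3 (0.244) or KO replicate 2 (0.576), with DESeq2 (0.309), limma-voom (0.285) and robust=FALSE (0.0652).

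**Figure D3:**
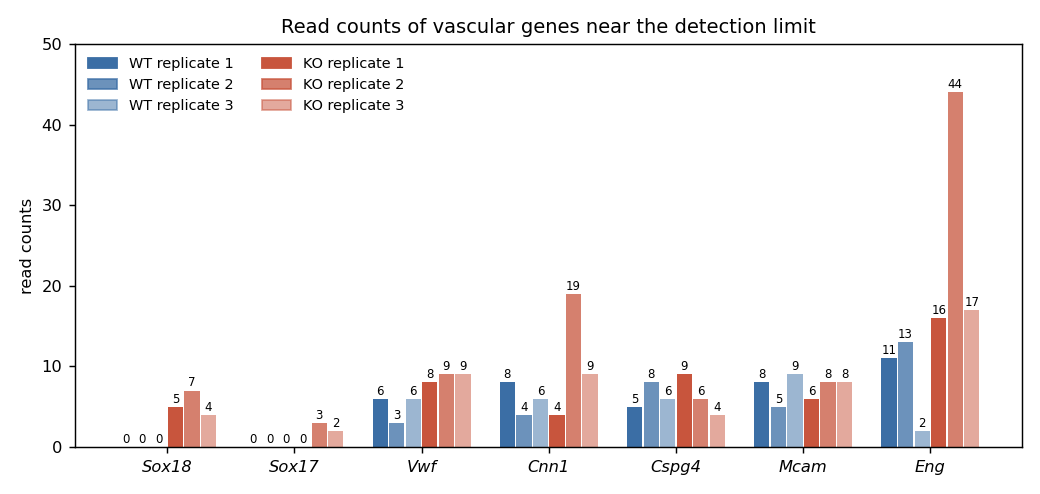
Read counts (y axis, linear from 0) in the 6 libraries for the 6 vascular genes too low for the main test and for Eng (x axis), with WT in blue, KO in red and lighter shades for later replicates. Sox18 has 0 reads in the WT libraries and 4 to 7 in the KO libraries; the 44 reads of Eng in KO replicate 2 stand apart.

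Of the 5 smooth muscle genes none was called, and the 4 tested had positive log2 fold changes. Acta2, the smooth muscle actin, had 128, 97.5 and 130.1 CPM across WT and 145, 179 and 132 CPM across KO. The genotypes did not overlap, but KO replicate 3 exceeded the highest WT library only slightly. The log2 fold change of Acta2 was 0.36 (SE 0.16, edgeR adjusted p = 0.231), or a fold interval of 1.01 to 1.63. Myh11, the smooth muscle myosin heavy chain, had 78.1, 70.9 and 75.3 CPM across WT and 82.0, 107 and 87.1 CPM across KO. Its libraries also did not overlap, and KO replicate 2 was highest again. Every KO library lay above every WT library for 13.5% of all genes tested. The log2 fold change of Myh11 was 0.30 (SE 0.16, edgeR adjusted p = 0.306).

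The other smooth muscle genes overlapped between genotypes. Tagln (SM22), an actin-binding protein, had 59.1, 55.9 and 61.6 CPM across WT and 52.6, 84.3 and 65.9 CPM across KO. Myl9, the regulatory light chain of smooth muscle myosin, had 110.0 ± 18.6 CPM across WT and 119 ± 19.5 CPM across KO, with a fold interval of 0.84 to 1.39. Cnn1 (calponin), an inhibitor of smooth muscle myosin, had 8, 4 and 6 reads in WT and 4, 19 and 9 reads in KO (exact two-sided permutation p = 0.7). All 5 smooth muscle genes reached their highest level in KO replicate 2, where their sum was 520.3 CPM against 315.6 to 392.3 CPM across WT and 380.6 and 410.7 CPM across KO replicates 1 and 3. That library also had the highest slow-fibre sum, 1578 CPM. With the slow-fibre score as covariate the median log2 fold change of the 4 tested genes was 0.223, and Acta2 and Myh11 stood at 0.332 and 0.277 (edgeR adjusted p = 0.29 and 0.37). Without that library the median log2 fold change of the 4 tested genes was 0.0943 in place of 0.25, and Acta2 and Myh11 stood at 0.225 and 0.178 (edgeR adjusted p = 0.527 and 0.623). Acta2 and Myh11 passed as higher with library totals (edgeR adjusted p = 0.0301 and 0.0455), on the scale where the median of all genes was raised.

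The level of Acta2 is uncertain to the extent that reads were shared with other actins, whose coding sequences are close. Acta1, the skeletal actin, fell from 38153 ± 5356 to 24226 ± 1835 CPM (log2 fold change -0.66, edgeR adjusted p = 0.00271). Actc1, the cardiac actin, had 43.1 ± 19.1 and 115 ± 63.0 CPM (edgeR adjusted p = 0.264). Tagln shares 1241 exon bases with an antisense gene, Gm48529, and reads of the strands may not have been told apart. In all, 6 members share exon bases with another gene. The same limit holds for Sox17 (804 bases, Gm37587), Notch3 (488 bases, Gm17276) and Mcam (17 bases, Gm10687). Egfl7 shares 264 bases with Gm20532 on its own strand, which counting by strand would not tell apart.

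The DNA just before the start of smooth muscle genes is shown because promoters of this group are known for CArG boxes. Promoter sequences from RefSeq (GRCm38.p6) were at hand for 3 of the 5 genes, Acta2, Myl9 and Cnn1. The 250 bases upstream of the start are given 5′ to 3′ on the strand of the gene, and capitals mark a CArG box with at most 1 base off, read on both strands, which is a description of letters and not of binding.
Acta2, chr19:34255374-34255623, minus strand: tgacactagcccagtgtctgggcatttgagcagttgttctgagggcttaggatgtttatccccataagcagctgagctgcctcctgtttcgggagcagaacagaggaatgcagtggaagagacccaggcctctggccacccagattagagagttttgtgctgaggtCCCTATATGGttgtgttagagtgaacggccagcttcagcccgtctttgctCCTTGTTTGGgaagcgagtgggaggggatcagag
Myl9, chr2:156775214-156775463, plus strand: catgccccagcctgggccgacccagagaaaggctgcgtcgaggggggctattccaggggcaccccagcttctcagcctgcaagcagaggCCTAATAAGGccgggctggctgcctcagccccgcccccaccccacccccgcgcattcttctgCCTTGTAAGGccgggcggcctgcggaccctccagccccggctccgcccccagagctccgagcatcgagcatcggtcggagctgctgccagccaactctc
Eng, chr2:32646345-32646594, plus strand: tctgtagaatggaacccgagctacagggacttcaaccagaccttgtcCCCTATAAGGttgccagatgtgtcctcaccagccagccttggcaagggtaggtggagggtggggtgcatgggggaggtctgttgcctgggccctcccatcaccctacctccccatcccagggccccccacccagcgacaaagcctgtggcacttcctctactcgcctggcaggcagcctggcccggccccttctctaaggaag
In Acta2 the matches began 84 and 34 bases before the start, in Myl9 161 and 99 bases before it, and in Eng, shown as an endothelial gene with a match, 203 bases before it. Among all 32851 mouse promoters of the same length 18.6% held at least 1 such match and 2.96% at least 2, while 1.47% held a CArG box with no base off, as Myl9 did. Cnn1 had no match in this window. Of the 15 promoters of the 11 endothelial genes searched 3 had a match (Egfl7, Kdr and Eng), and of the 5 promoters of 5 pericyte genes 2 had a match. Eng was printed because it held a match, so that match is no result about Eng.

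Of the 7 pericyte genes none was called either, and the 5 tested had negative log2 fold changes. Pdgfrb, the PDGF receptor beta that recruits pericytes to endothelium and is also found on fibroblasts, had 33.6, 27.9 and 21.2 CPM across WT and 15.9, 16.2 and 20.1 CPM across KO. Every KO library lay below every WT library, as for 12.2% of all genes tested, with WT replicate 3 just above KO replicate 3. The log2 fold change of Pdgfrb was -0.66 (SE 0.24, edgeR adjusted p = 0.131), or a fold interval of 0.446 to 0.904, and no alternative called it (adjusted p 0.0849 to 0.362). The summed fibroblast markers ranged from 1396 to 2245 CPM across WT and from 1380 to 2174 CPM across KO, so they overlapped, and 0 of the 8 passed.

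Rgs5, a regulator of G protein signalling that marks pericytes, had the smallest SE of the 26 tested genes. Its level was 461, 462 and 476 CPM across WT and 409, 462 and 474 CPM across KO. The genotypes overlapped with KO replicate 1 lowest, and the fold interval was 0.826 to 1.12 (edgeR adjusted p = 0.826). Kcnj8, the potassium channel subunit Kir6.1, had 27.0, 30.7 and 32.2 CPM across WT and 21.4, 18.7 and 36.1 CPM across KO, so KO libraries lay on both sides of the WT range. Notch3, the Notch receptor of mural cells, had 10.7 ± 1.49 and 8.18 ± 1.78 CPM, and Higd1b, a pericyte marker of the mitochondrial HIG1 family, had 9.98 ± 1.10 and 7.66 ± 3.44 CPM. Their fold intervals were 0.48 to 1.23 and 0.45 to 1.31. Cspg4 (NG2), a pericyte proteoglycan, and Mcam (CD146), made by pericytes and endothelium, had 4 to 9 and 5 to 9 reads in each library and were too low to test (exact two-sided permutation p = 0.8 and 0.6).

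The signs were opposite in the 2 kinds of mural cell, beside 52% of all genes with a positive log2 fold change. They depended on settings: with library totals 2 of the 5 pericyte genes were positive, without KO replicate 1 it was 1, and without WT replicate 2 or KO replicate 2 there was 1 negative smooth muscle gene of 4. Without KO replicate 2 the pericyte median was -0.214. Whether the kinds differed was not tested. Summed over 7 genes the pericyte level was 552.3, 550.0 and 560.7 CPM across WT and 476.0, 517.8 and 552.8 CPM across KO. KO replicate 3 lay within the WT range and the other KO libraries below it, and Rgs5 made up most of every sum. None of the pericyte genes was highest in KO replicate 2, and 3 of the 7 were lowest there.

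**Figure D4:**
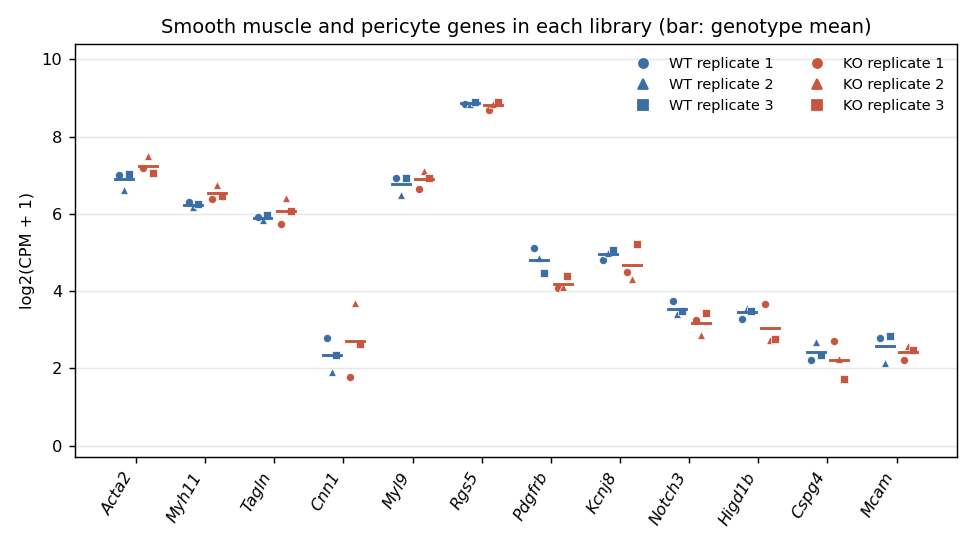
Level of each of the 12 mural genes (x axis; 5 smooth muscle genes on the left, 7 pericyte genes on the right) as log2(CPM + 1) (y axis) in the 6 libraries, with WT in blue, KO in red, a symbol for each replicate and a bar for the mean of the plotted values of a genotype. KO replicate 2 (red triangle) is highest for the 5 smooth muscle genes, and Pdgfrb is lower in KO without overlap.

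Among 98 further genes of vessels in 9 lists, 48 were tested, and 1 rose and 2 fell. That is 6.25% of those tested, near the 6.26% of all genes tested, and so no result about these lists. Smtn (smoothelin), an actin-binding protein of contractile smooth muscle that striated muscle makes as well, had 46.7, 40.2 and 36.3 CPM across WT and 65.5, 66.8 and 58.4 CPM across KO. All KO libraries were higher, and Smtn rose by 0.63 on the log2 scale (SE 0.17, edgeR adjusted p = 0.0402), a call lost when any 1 library was omitted (adjusted p 0.0645 to 0.172). It was also lost by limma-voom (0.0501), by DESeq2 (0.152) and with a covariate for slow fibres (0.0503), while the log2 fold change in those fits was 0.632, 0.615 and 0.61. Tpm2, a tropomyosin of both smooth and skeletal muscle, fell from 3942 ± 530.0 to 2474 ± 249 CPM (edgeR adjusted p = 0.00222). Art3, an ADP-ribosyltransferase listed with pericytes and also made by skeletal muscle, fell from 142 ± 25.8 to 50.7 ± 15.03 CPM (log2 fold change -1.48, edgeR adjusted p = 0.000571). Bulk RNA does not say which cells these reads came from. Of 14 further smooth muscle genes 10 were tested with a median of 0.05, and of 8 further pericyte genes 7 with a median of -0.14. Abcc9, the sulfonylurea receptor that pairs with Kcnj8, had 38.9 ± 1.95 and 26.9 ± 6.61 CPM (edgeR adjusted p = 0.186), and serum response factor itself, Srf, had 8.58 ± 1.16 and 5.58 ± 1.25 CPM (edgeR adjusted p = 0.372).

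The 7 lists of endothelial genes and growth factors gave 0 calls with edgeR, DESeq2 and limma-voom alike. Of 29 ligands and receptors of vessel growth 11 could be tested, with a median of -0.03 and 0 at an unadjusted p under 0.05. Of all genes tested 10.7% had such a p toward higher and 9.28% toward lower levels. Vegfa, the main angiogenic growth factor of muscle fibres, had 11.8 ± 6.85 and 14.96 ± 6.72 CPM (edgeR adjusted p = 0.748), and Vegfb had 9.29 ± 2.75 and 11.7 ± 3.44 CPM. Of 8 further capillary genes 6 were tested with a median of -0.01; Cd36, a fatty acid receptor that muscle fibres make too, had 238 ± 13.5 and 248 ± 9.73 CPM. Of 10 genes of endothelial function 8 were tested, and Ace, the angiotensin-converting enzyme of the capillary surface, and Procr, the protein C receptor, were the 2 with an unadjusted p under 0.05. Ace had 33.3 ± 2.99 CPM across WT and 22.2 ± 3.42 CPM across KO, and Procr 21.6 ± 3.49 and 14.6 ± 1.56 CPM. Neither passed (edgeR adjusted p = 0.129 and 0.204). Both lay lower in KO without overlap, as did 12.2% of all genes tested. Of 11 endothelial transcription factors, 6 arterial, 6 venous and 6 lymphatic genes only 1, 1, 2 and 2 had enough reads, and 0 passed.

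Markers of other cell types outside the muscle fibre did not pass, and their sums differed between libraries of a genotype. Of the fibre genes 1 of 10 slow ones rose (Casq2, a calsequestrin) and 4 of 6 fast ones fell, where 2.98% of all genes tested were called higher and 3.28% lower. The summed macrophage markers were 169.8 to 559.6 CPM across WT and 210.5 to 230.9 CPM across KO, the adipocyte markers 130.1 to 795.3 and 377.5 to 622.1 CPM, and the slow-fibre markers 91.7 to 504.9 and 156.4 to 1578 CPM. Of 7 tested macrophage, 6 adipocyte, 5 red blood cell, 4 Schwann cell and 8 fibroblast markers 0 passed with edgeR, DESeq2 or limma-voom, and 0 of them had an unadjusted p under 0.05. Of all genes tested 6.26% passed with edgeR, and 10.7% (higher) and 9.28% (lower) had an unadjusted p under 0.05. These markers were measured less precisely. Their median SE was 0.392, 0.703, 0.352, 0.326 and 0.412 in that order, against 0.248 for all genes tested, so the 0 does not show equal levels. All 7 macrophage and all 5 red blood cell markers tested had negative log2 fold changes (medians -0.625 and -0.66), with WT replicate 1 highest in both sums; their part in the vascular values was not tested.

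**Figure D5:**
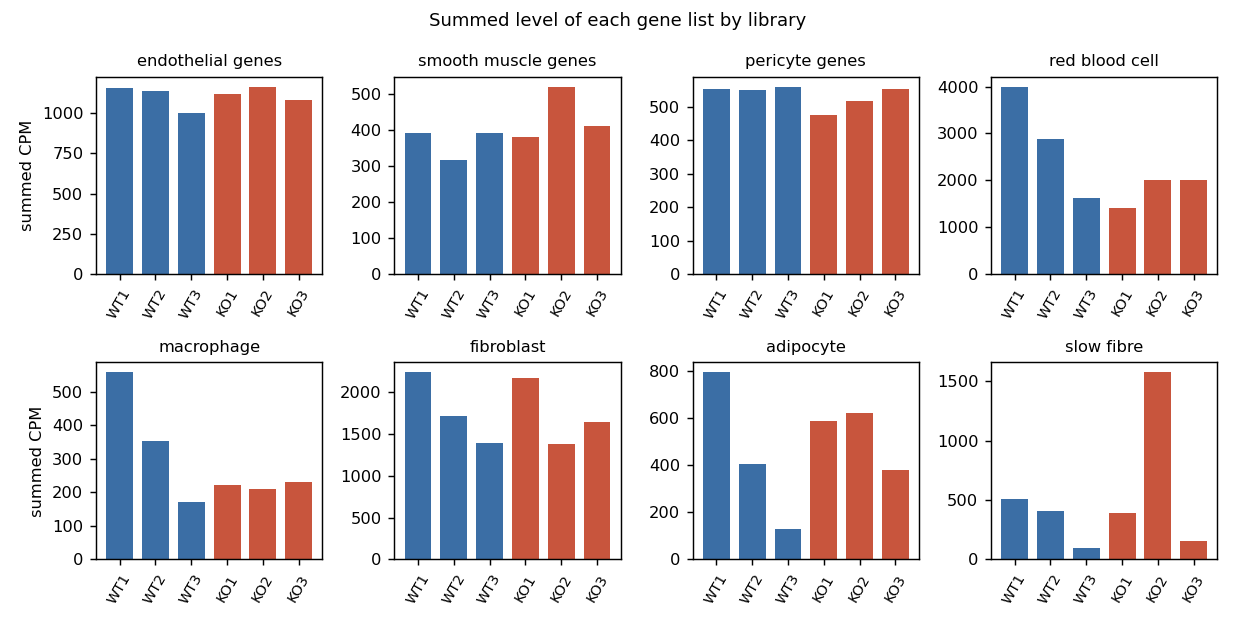
Summed CPM (y axis, linear from 0, a scale of its own in each panel) of endothelial, smooth muscle, pericyte and other cell type genes in each library (x axis), with WT in blue and KO in red. The endothelial sums lie between 999.5 and 1167 CPM and the pericyte sums between 476.0 and 560.7 CPM, the smooth muscle sum is highest in KO replicate 2, and blood, adipocyte and slow-fibre sums vary within a genotype.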

How the data were processed

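Total RNA was made into cDNA by template switching, amplified by PCR and read on a nanopore instrument, per the labels' protocols. minimap2, DESeq2 1.6.3 and the build GRCm38 are named per the submitters' processing notes; which counter and annotation were used, and whether with strand, is not stated in them. The deposited values are read counts per Ensembl gene, not normalized, per the file headers. The deposited CPM are these counts over a fixed total per library, by the authors, and served only to check that total.

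The main test was the robust quasi-likelihood F test of edgeR 4.0.16 (R 4.3.3) between KO and WT, after TMM scaling of the 6680 genes that filterByExpr kept (minimum count 10, minimum total 15, by genotype), with Benjamini-Hochberg adjustment at 0.05. The SE is the log2 fold change over the square root of F, and 95% intervals use the t quantile of the fit. Genes under the filter have counts and an exact permutation test over libraries, which cannot go below p = 0.1. Replicates are numbered 1 to 3 in accession order, which pairs nothing. The chi-square per degree of freedom between libraries of a genotype was 2.49 to 6.44, so none was a repeat of another within sampling noise.

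Fits on all 14292 genes with a read, other than the first, were added after seeing the data. Members and gene lists were chosen with earlier results of these data known. Named genes are the 32 members, Prr14, the called genes and up to 3 genes with the smallest p of each further vascular list, and, chosen after their values were seen, Ly6c2, Acta1, Actc1, Sox7, Srf, Vegfa, Vegfb, Cd36 and Myh4. Alternatives were other scalings, other filters, limma 3.58.1 (voom), DESeq2 1.42.0, a dispersion without robust=TRUE, a slow-fibre covariate and each library left out. The test was checked on simulated counts (6703 genes passing the filter, 200 changed); of 134 calls 11 were false. Positions are from GENCODE M21 on GRCm38. Reads carry no molecular identifiers, so floors cover counting error only.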

Additional observations from a re-analysis of the deposited data

How the results depend on the processing

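No paired analysis was possible because the labels give the genotypes only 1 number in common. The count of endothelial genes called lower and of mural genes called lower was 0 in all settings run. Endothelial genes called higher were 0 in the main test, 1 with library totals (Cldn5) and 2 with no filter (Sox18 and Eng), and mural genes called higher were 0 and, with library totals, 2 (Acta2 and Myh11). Sox18 entered the fit with no filter through its KO reads alone. Library totals also moved the endothelial median to 0.217 and the calls over all genes from 199 higher and 219 lower to 653 higher and 148 lower; the scale itself differs, as the median of all genes there was 0.251. With no filter 344 were higher and 362 lower over 14292 genes. With 1 library left out the calls over all genes were 83 to 179 higher and 154 to 187 lower, lowest without WT replicate 2, while the members called stayed at 0, the endothelial median at -0.0476 to 0.0363 and the mural median at -0.101 to 0.00654. In the simulated counts, where a call needed a smaller unadjusted p than in the data, a change by a factor of 1.5 was mostly missed. Sox18 lies at the detection limit.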

Other observations

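Of the 50 further vascular genes too low for the main test, 0 passed with edgeR, DESeq2 or limma-voom when the filter was removed, and 4 had an unadjusted p under 0.05 with edgeR. Of all 7612 genes with a read under the filter 73, 3 and 21 passed with these tools in that order. An unadjusted p under 0.05 with edgeR was found for 448 of the 7612. The counts for the 50 are therefore no result about vascular genes. The 4 vascular genes, named for their p after their values were seen, went in both directions. Angptl4, a secreted inhibitor of lipoprotein lipase, had 6, 3 and 2 reads in WT replicates 1 to 3 and 8, 11 and 16 reads in KO replicates 1 to 3 (edgeR adjusted p = 0.102). Vegfd, a growth factor of lymphatic vessels, had 3, 3 and 3 reads against 12, 7 and 10 reads (edgeR adjusted p = 0.158). Fli1, an ETS transcription factor of endothelial and blood cells, had 6, 10 and 3 reads against 1, 2 and 4 reads, with overlap between the genotypes (edgeR adjusted p = 0.192). Ackr1, a chemokine-binding receptor of venules, had 4, 1 and 4 reads against 9, 8 and 10 reads (edgeR adjusted p = 0.233). Of the 50 genes 8 (16%) lay higher in every KO than in every WT library and 3 (6%) lower, beside 4.58% and 5.56% of all 7612 genes with a read under the filter, a set not matched to the 50 in read counts.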
